A study of Mus musculus with 11 samples.

Results

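The regions described here are upstream antisense RNAs (uaRNAs), the transcripts that leave a promoter in the direction opposite to its gene, at promoters where a second annotated gene starts nearby on that opposite strand. A uaRNA was taken where its mean over the 5 libraries was 10 depth-normalized reads or more and where the start of an opposite-strand gene lay 0 to 5 kb upstream of the start of its host gene (the gene whose promoter it leaves). The rule gave 237 uaRNAs, which is 4.63% of the 5124 uaRNAs at that level and part of the 5867 in the table. A further 11 uaRNAs in the window were below the mean of 10 and were not tested. Each of the 237 had its own divergent partner gene, and 232 of the partners reached the same mean in exon reads. Of the partners 214 were annotated as protein-coding, 20 as lncRNA (long noncoding RNA), 2 as snRNA and 1 as a pseudogene. Except where the 2 uaRNAs of a pair are compared, pairs are counted once per member uaRNA. The 52 gene pairs with a tested uaRNA at both genes thus count from each side, 18 of them within 2 kb and 34 at 2 to 5 kb.

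RNA polymerase II starts in both directions at most mammalian promoters. In the gene direction it elongates, while the upstream antisense transcript is usually ended early and degraded by the nuclear exosome. The Restrictor complex of ZC3H4 and WDR82 is known to attenuate such transcription, and splice sites and promoter-proximal poly(A) signals are known to differ between the sense and antisense directions. At a divergent gene pair the antisense transcript of one gene runs towards, or is, the transcript of the other, so the same strand can carry a uaRNA and a stable messenger RNA.

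The samples were F121-9 cells, a mouse embryonic stem cell line of a female CAST/129 hybrid background, wild-type per the labels and grown in serum-free medium with LIF and inhibitors of MEK and GSK3. All cells received 30 nM siRNA and 500 µM 4-thiouridine (4sU) for 20 minutes, and were harvested 47 hours after transfection. The siRNA was non-targeting (siNT, n = 3, replicates 1, 2 and 3) or directed at Zc3h4 (siZC3H4, n = 2, replicates 2 and 3). Newly made RNA was isolated through its 4sU and sequenced (TT-seq), and 6 libraries of DMSO and dTAG-13 treated cells are not analysed here. The series calls the libraries biological replicates. The labels name 1 cell line and no separate cultures, so p-values measure the spread between these libraries, part of which may be technical.

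Per siNT library 996927 to 1195995 reads fell in uaRNA regions and 14840637 to 18479834 in exons, and per library labelled siZC3H4 1448879 to 2648683 and 16173640 to 26548710. Exon reads of Zc3h4, the siRNA target, were 3465, 3610 and 3363 under siNT and 7285 and 6718 under the siZC3H4 label, higher in both of the latter (log2 1.01 ± 0.11 SE, limma adjusted p = 0.0043). This goes against the direction a knockdown label would give for mature mRNA, so siZC3H4 below stands for the libraries labelled so. All 10 embryonic stem cell markers were in the gene table with summed reads of 95397 to 111445 in siNT and 83136 to 97998 in siZC3H4. Of the fibroblast, endoderm, trophoblast and neural markers 8 of 21 were in the table, and the sum of each list was at most 228 reads in every library. The fibroblast, endoderm and trophoblast sums overlapped between the groups. The neural sum, over 4 of 5 markers, was 109.6 to 129 reads in siNT and 154 to 168 in siZC3H4, without overlap, and its part in the results was not tested.

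Stretches of 250 bases are shown for 6 members, because they cover both patterns of response described below. At the first 3 the divergent partner rose, and at the last 3 the uaRNA rose relative to its partner. Each sequence is read on the strand of the uaRNA, 5′ to 3′, from the host start outwards towards the partner, and comes from the RefSeq promoter table of GRCm38.p6, whose start for the host lies 0 to 49 bases from the start in the authors' table. Capitals mark matches, on either strand, to CCAAT (the NF-Y box), GGGCGG (the SP1 box) or CGGAAG (the ETS core). All 6 lie upstream of the host gene and short of the partner's start. The first stretch, at Gpi1, is chr7:34230337-34230586 on the + strand. Trim25 is chr11:88999153-88999402 on the - strand and Tmc6 is chr11:117780693-117780942 on the + strand. Fibp is chr19:5460357-5460606 and Zbtb3 is chr19:8802263-8802512, both on the - strand, and Magt1 is chrX:106011803-106012052 on the + strand.
Gpi1: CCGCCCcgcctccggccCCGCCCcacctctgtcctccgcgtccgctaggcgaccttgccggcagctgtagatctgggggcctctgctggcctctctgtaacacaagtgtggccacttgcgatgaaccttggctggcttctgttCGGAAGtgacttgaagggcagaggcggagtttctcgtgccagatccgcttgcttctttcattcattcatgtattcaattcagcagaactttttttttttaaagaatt
Trim25: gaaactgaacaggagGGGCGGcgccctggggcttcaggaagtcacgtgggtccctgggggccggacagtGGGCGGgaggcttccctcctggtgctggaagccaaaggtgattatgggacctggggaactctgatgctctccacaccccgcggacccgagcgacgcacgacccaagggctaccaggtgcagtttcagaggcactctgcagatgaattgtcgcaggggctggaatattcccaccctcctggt
Tmc6: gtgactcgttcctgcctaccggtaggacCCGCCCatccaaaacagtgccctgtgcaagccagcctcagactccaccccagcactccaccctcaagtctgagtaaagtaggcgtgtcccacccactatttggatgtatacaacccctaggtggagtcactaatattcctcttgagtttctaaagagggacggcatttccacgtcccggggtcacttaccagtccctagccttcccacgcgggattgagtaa
Fibp: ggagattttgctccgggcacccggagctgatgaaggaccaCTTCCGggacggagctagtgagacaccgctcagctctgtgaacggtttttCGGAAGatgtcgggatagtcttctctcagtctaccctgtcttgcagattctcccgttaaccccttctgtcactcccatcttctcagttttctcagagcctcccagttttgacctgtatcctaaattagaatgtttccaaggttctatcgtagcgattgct
Zbtb3: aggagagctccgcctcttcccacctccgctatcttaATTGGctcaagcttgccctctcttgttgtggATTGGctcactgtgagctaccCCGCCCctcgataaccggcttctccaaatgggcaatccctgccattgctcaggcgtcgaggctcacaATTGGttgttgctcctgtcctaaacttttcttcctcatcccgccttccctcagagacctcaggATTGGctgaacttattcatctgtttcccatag
Magt1: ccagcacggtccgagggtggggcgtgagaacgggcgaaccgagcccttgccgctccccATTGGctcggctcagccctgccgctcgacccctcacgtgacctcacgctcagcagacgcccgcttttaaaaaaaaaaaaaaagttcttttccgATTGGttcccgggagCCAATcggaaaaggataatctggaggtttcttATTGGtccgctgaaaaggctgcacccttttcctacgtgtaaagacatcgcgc

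Promoter sequence of this length could be matched by symbol, strand and a start within 100 bases for 153 of the 237 members and for 3260 of 5120 hosts of tested uaRNAs. Median GC content was 59.2% for the members and 62.0% for all matched hosts. Counting both strands, CCAAT was present at 41.2% of member promoters and 39.4% of all, GGGCGG at 60.8% and 68.8%, CGGAAG at 36.6% and 33.3%, and TATAAA at 5.88% and 4.57%. The longer matches were rare, with the NRF1 palindrome at 2 of 153 member promoters and 2.61% of all, and the extended YY1 motif at 1 of 153 and 0.52%. On the uaRNA strand alone, the poly(A) signal AATAAA was present at 5.88% of member stretches and 3.31% of all, and the 5′ splice site letters GTAAGT at 2.61% and 1.50%. All 4 member stretches with GTAAGT belonged to the 48 whose partner started within 2 kb, and the 105 with a more distant partner had 0. A match is a description of the letters only.

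Promoters with a divergent gene very close by were missing from the uaRNA table. The shortest start distance of any uaRNA host was 785 bases, and this limit was taken from the data. By that choice none of the 1595 protein-coding genes with a closer divergent start hosted a uaRNA of the table. The share was 17.9% (10 of 56) from 785 bases to 1 kb, 54.4% (68 of 125) from 1 to 2 kb, 55.4% (170 of 307) from 2 to 5 kb and 56.6% (5588 of 9871) beyond 5 kb. The members therefore have start distances of 785 to 4999 bases, with a median of 2993, and the tightest bidirectional promoters are outside these data. Among textbook divergent pairs, Brca1 and Nbr1 (990 bases apart), Atm and Npat (371) and Hspd1 and Hspe1 (511) host no uaRNA of the table. Trp53, which encodes the p53 tumour suppressor, was the 1 textbook member, 1181 bases from Wrap53, a gene of telomerase assembly. Its uaRNA had 1588, 1531 and 1439 reads in siNT and 1826 and 1617 in siZC3H4 and Wrap53 exons had 1670, 1756 and 1567 reads in siNT and 1880.0 and 1781 in siZC3H4. The groups did not overlap for either, and neither passed the test (log2 0.18 and 0.14). With the uaRNA table scaled on itself the Trp53 uaRNA passed as lower under TMM (-0.69, limma adjusted p = 0.00974) and the median of ratios (-0.71, 0.00886). These 2 scalings centre all uaRNAs by construction. The median over the table is then 0.03 and 0.01 in place of 0.88, so a uaRNA near 0 turns lower.

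Fewer than 1 in 2 member uaRNAs rose, and 12 of the 77 with a partner start within 2 kb did. In the limma fit over all 5124 uaRNAs (Benjamini-Hochberg adjusted p below 0.05), 99 of 237 members rose (41.8%), against 62.1% of all uaRNAs tested. The uaRNAs of Cops7b and Gemin2 fell (2 of 237, against 1.13% of all), and 136 did not pass. The median log2 change was 0.45 (interquartile range 0.07 to 0.95), beside 0.88 over all uaRNAs tested and 0.90 over the 4883 uaRNAs with no divergent start within 5 kb. In both libraries labelled siZC3H4 132 members (55.7%) lay above every siNT library, against 73.7% of all uaRNAs, and 8 lay below, against 2.11%. In such bulk libraries fewer transcribing cells and less RNA per cell cannot be told apart. These counts rest on the deposited depth factors. TMM and the median of ratios instead centre the uaRNA table by construction, so uaRNAs that changed less than most move below 0. With each table scaled on itself, 15 members rose and 88 fell under TMM, against 10.9% and 11.0% of all uaRNAs, with a median of -0.40 beside 0.03 over all. Under the median of ratios 14 rose and 90 fell, against 10.5% and 11.5%, with a median of -0.43. Under equal totals 34 rose and 48 fell, against 24.5% and 6.23%, with a median of -0.11 beside 0.32 over all. Without siZC3H4 replicate 2, 54 members rose under the deposited factors, against 35.9% of all uaRNAs, and without it or without siNT replicate 3 none fell.

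With a partner start 785 bases to 2 kb away, 12 of 77 uaRNAs rose (15.6%), that of Gemin2 fell, and the median log2 change was 0.11. From 2 to 5 kb 87 of 160 rose (54.4%), that of Cops7b fell, and the median was 0.68. Without siZC3H4 replicate 2, 8 of 77 and 46 of 160 rose. With the table scaled on itself, of the 77 within 2 kb 0 rose and 53 fell under TMM, 0 and 55 under the median of ratios, and 2 and 32 under equal totals. Of the 160 at 2 to 5 kb 15 rose and 35 fell under TMM, 14 and 35 under the median of ratios, and 32 and 16 under equal totals. The 10 uaRNAs with the closest partners, 785 bases to 1 kb away, were not the lowest: 4 of 10 rose, with a median of 0.34. Among them 3 gene pairs count from both sides. A finer division, chosen after the values were seen, gave medians of 0.42 from 2 to 3 kb (19 of 43 rose), 0.66 from 3 to 4 kb (34 of 65) and 0.91 from 4 to 5 kb (34 of 52). Beyond the window, 59.7% of 263 uaRNAs rose at 5 to 10 kb with a median of 0.83, 58.4% of 459 at 10 to 20 kb, 66.4% of 870 at 20 to 50 kb and 63.1% of 3272 over 50 kb. The share was lowest between 1 and 2 kb, at 8 of 67 (11.9%), and at 4 to 5 kb it was 65.4%.

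**Figure D1:**
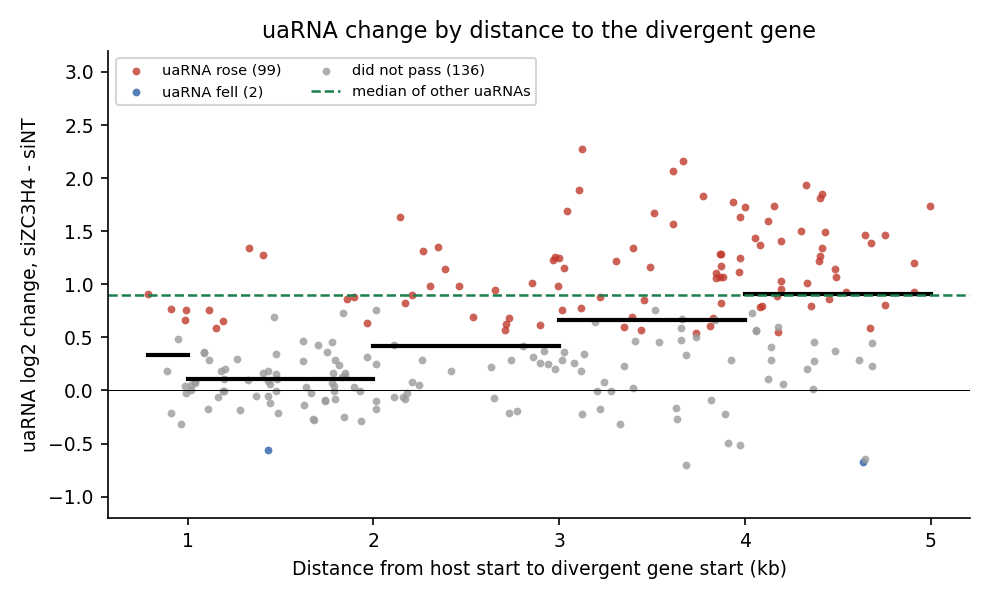
Log2 change of each of the 237 member uaRNAs (siZC3H4 minus siNT, on log2(reads + 1)) against the distance in kb between the host start and the divergent gene start. Red points rose (99), blue points fell (2), grey points did not pass (136), black bars are medians of each distance class and the dashed line is the median of uaRNAs with no divergent start within 5 kb (0.90). The class medians are 0.34 up to 1 kb, 0.11 from 1 to 2 kb and 0.91 from 4 to 5 kb.

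The gap between the distance classes was also measured within the uaRNA table, where a common scaling factor nearly cancels. The median of the members within 2 kb minus that of uaRNAs with no divergent start within 5 kb was -0.79 on the log2 scale, and ranged from -0.83 to -0.72 over the 16 settings of scaling, pseudocount, filter, tool, block and left-out library. Members at 2 to 5 kb were lower than the same uaRNAs by a median difference of -0.22 (-0.26 to -0.18). Not all 16 settings could move these differences. The 3 scalings nearly cancel by construction, and the setting without the filter kept the same uaRNAs. The block gave the same value within 2 kb as leaving out siNT replicate 1 (-0.82). These differences are descriptions and carry no test. The members within 2 kb also had more reads, with a median mean of 507 against 73.9 for uaRNAs with no divergent start nearby. Within classes of read level, at 200 to 1000 mean reads, 7 of 45 members within 2 kb rose (15.6%), 29 of 49 members at 2 to 5 kb (59.2%) and 73.4% of 997 uaRNAs with no divergent start within 5 kb. At 1000 reads or more the shares were 3 of 21, 4 of 10 and 64.0% of 111.

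The 12 members that rose with a start within 2 kb were the uaRNAs of Gpbp1l1, Ncor1, Nfib, Prcp, Rnf41, Scaf1, Setd1b, Smg5, Smim7, Tlcd1, Tmc6 and Tsr1. The largest was that of Tmc6, a transmembrane channel-like gene whose neighbour Tmc8 starts 1331 bases away, with 78, 57.4 and 61.4 reads in siNT and 177 and 157 in siZC3H4 (log2 1.34 ± 0.28 SE, limma adjusted p = 4.78e-05). Both libraries labelled siZC3H4 were above all siNT libraries. Under TMM and the median of ratios the Tmc6 change was 0.49 and 0.46 and did not pass (limma adjusted p = 0.128 and 0.148). Ncor1 encodes a nuclear receptor corepressor, and its uaRNA had 1487, 1267 and 1523 reads in siNT and 2329.9 and 2499 in siZC3H4 (log2 0.76 ± 0.20 SE, limma adjusted p = 7.30e-04), again without overlap. Under TMM or median-of-ratios scaling of the uaRNA table, the log2 change at Ncor1 turned to -0.10 and -0.13. Under equal totals it was 0.19 and did not pass.

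The largest rises among all members had distant partners. The uaRNA of Fibp, which encodes a protein that binds acidic fibroblast growth factor inside the cell, had 16, 18.3 and 26.5 reads in siNT and 157 and 63.1 in siZC3H4, and Ccdc85b starts 3126 bases away. Both siZC3H4 values were above all siNT values, and the change was log2 2.28 ± 0.36 SE, limma adjusted p = 3.50e-07. At Rplp2, a ribosomal stalk protein gene 3667 bases from the death-domain adaptor gene Pidd1, the uaRNA had 338, 469 and 331 reads in siNT and 2298 and 1229 in siZC3H4 (log2 2.16 ± 0.23 SE, limma adjusted p = 7.68e-12). That of Smarcd2, a BAF chromatin remodelling subunit gene, had 423, 329.6 and 329 reads in siNT and 1763 and 1278 in siZC3H4 (log2 2.06 ± 0.22 SE, limma adjusted p = 8.99e-12), and Tcam1, a cell adhesion gene of the testis, starts 3615 bases away. At the last 2 as well, no siNT library reached either siZC3H4 value.

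The uaRNA of Lgr4, a receptor gene for R-spondins, was near the lower limit of the rule with 6, 8.70 and 0.853 reads in siNT and 19.2 and 17.2 in siZC3H4, so its log2 1.94 ± 0.58 SE, limma adjusted p = 0.00342 rests on few reads. It did not pass without siZC3H4 replicate 2 or replicate 3 (limma adjusted p = 0.0884 and 0.0502), nor under TMM, the median of ratios or equal totals (0.231, 0.242 and 0.107). Without siNT replicate 3 the change was 1.22, and with a pseudocount of 5 it was 1.27. Next came the uaRNAs of Rassf1 at log2 1.89, Itpkc, an inositol trisphosphate kinase gene, at 1.85, Pym1, a gene for exon junction complex recycling, at 1.83, and Coro7, a coronin gene, at 1.82. The Rassf1 rise was not called under TMM (1.04, limma adjusted p = 0.0593) or the median of ratios (1.02, 0.0648). That of Zbtb3, a zinc finger gene, rose by log2 1.78. The partners of the uaRNAs named in these rises start 3107 to 4416 bases away.

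Of the falls, the uaRNA of Cops7b, a subunit of the COP9 signalosome, had 219, 259 and 303 reads in siNT and 144 and 179.7 in siZC3H4, lower in both libraries labelled siZC3H4 (log2 -0.68 ± 0.25 SE, limma adjusted p = 0.0144). The prenyl-binding gene Pde6d starts 4636 bases away. Reads at Gemin2, which encodes a component of the SMN complex, were 337, 251.3 and 484 reads in siNT and 185 and 294 in siZC3H4, and the groups overlapped (log2 -0.56 ± 0.25 SE, limma adjusted p = 0.0434). Its partner Sec23a, a COPII coat gene 1434 bases away, had 1113, 1100 and 1542 reads in siNT and 847 and 1129 in siZC3H4 and did not pass (log2 -0.34). Neither fall was called without siNT replicate 3 or without siZC3H4 replicate 2.

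Few of the divergent partner genes passed the test. In the fit over 12482 genes 13 of 232 partners rose (5.60%), against 2.22% of all genes, and 0 fell in limma, against 0.144%, with a median log2 change of 0.04 beside 0.01 over all genes. At an unadjusted p below 0.05, 40 partners were higher and 9 lower, against 11.0% and 4.39% of all genes. By edgeR's quasi-likelihood test on the recovered reads 14 rose and 0 fell, against 2.76% and 0.152% of all genes. By DESeq2 23 rose and 0 fell, against 4.3% and 0.777%. Without the filter on low means 1 partner rose in limma, against 0.29% of all genes. Of lncRNA partners 5 of 18 rose, with a median of 0.56, and of protein-coding partners 8 of 211 rose, with a median of 0.02. At 12 of the 13 pairs whose partner rose, the uaRNA rose as well, beside 41.8% of all members and 62.1% of all uaRNAs. At the other, Gpi1, it did not pass. Whether uaRNA region and partner exons shared reads at these pairs was not tested. The rises depended on 2 libraries: without siNT replicate 1 or without siZC3H4 replicate 2 none of the 13 passed, with adjusted p of 0.0536 or more and 0.0528 or more, while their log2 changes stayed between 0.58 and 2.57 and between 0.59 and 2.69. Of all genes 0.016% and 0.0801% rose there. With siNT replicate 3 left out 23 partners rose and 2 fell, against 5.42% and 1.11% of all genes, and with siZC3H4 replicate 3 left out 7 rose, against 0.641%.

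Tcam1 had the largest partner change. Its exons had 22, 20.9 and 36.7 reads in siNT and 145 and 171 in siZC3H4, low in siNT and without overlap between the groups (log2 2.57 ± 0.31 SE, limma adjusted p = 0.00569), beside the log2 2.06 of the Smarcd2 uaRNA. The lncRNA gene Tnfsf13os, 2143 bases from the SUMO protease gene Senp3, had 83, 51.3 and 46.9 reads in siNT and 380.3 and 230.4 in siZC3H4 (log2 2.32 ± 0.31 SE, limma adjusted p = 0.0084), and the Senp3 uaRNA had 510, 393 and 382 reads in siNT and 1645 and 1061 in siZC3H4 (log2 1.64). Grik5, a kainate receptor subunit gene, had 65, 80.9 and 113 reads in siNT and 355 and 399 in siZC3H4 (log2 2.15 ± 0.25 SE, limma adjusted p = 0.00534), and the uaRNA of its neighbour Zfp574 had 266, 258 and 332 reads in siNT and 970.0 and 661 in siZC3H4 (log2 1.49). For these genes no siNT library reached either siZC3H4 value.

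At Gpi1, the gene of the glycolytic enzyme glucose-6-phosphate isomerase, the pattern was uneven. The lncRNA Gm12758 had 81, 114 and 65.7 reads in siNT and 450.5 and 300.2 in siZC3H4 (log2 2.11 ± 0.28 SE, limma adjusted p = 0.00789), while the uaRNA region had 10, 10.4 and 11.1 reads in siNT and 14.1 and 19.1 in siZC3H4 without overlap and did not pass (log2 0.60). The lncRNA Gm11496 next to Trim25, an E3 ligase gene of antiviral signalling, had 55, 65.2 and 50.3 reads in siNT and 301 and 199 in siZC3H4 (log2 2.09 ± 0.25 SE, limma adjusted p = 0.00572), and the Trim25 uaRNA had 149, 189.6 and 141 reads in siNT and 588 and 451 in siZC3H4 (log2 1.69). Gm11266, the closest partner of all at 785 bases from the transcription factor gene Nfib, had 37, 45.2 and 35.8 reads in siNT and 117 and 109.9 in siZC3H4 (log2 1.51 ± 0.25 SE, limma adjusted p = 0.0173), and the Nfib uaRNA rose by log2 0.91, a call lost under each of the 3 scalings of the table on itself (0.043, 0.018 and 0.34).

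Protein-coding partners with more reads followed. Tmc8 had 124, 118 and 114 reads in siNT and 383 and 295 in siZC3H4 (log2 1.49 ± 0.20 SE, limma adjusted p = 0.00766). Eno3, the muscle enolase gene 2385 bases from the profilin gene Pfn1, had 163, 188 and 185 reads in siNT and 585 and 428 in siZC3H4 (log2 1.48 ± 0.19 SE, limma adjusted p = 0.00729), beside 313, 343 and 309 reads in siNT and 870.4 and 584 in siZC3H4 in the Pfn1 uaRNA (log2 1.15). Pigl, a gene of GPI anchor synthesis 911 bases from Ncor1, had 2732, 2711 and 2989.8 reads in siNT and 4749 and 5130.0 in siZC3H4 (log2 0.81 ± 0.11 SE, limma adjusted p = 0.00972). Mus81, a DNA structure-specific endonuclease gene 2170 bases from the cofilin gene Cfl1, had 1098, 1002 and 935 reads in siNT and 1645 and 1688 in siZC3H4 (log2 0.72 ± 0.13 SE, limma adjusted p = 0.0236), and the Cfl1 uaRNA had 559, 466 and 497 reads in siNT and 899.8 and 898 in siZC3H4 (log2 0.83). In each of the 4 pairs uaRNA and partner were higher in both libraries labelled siZC3H4. The reciprocal uaRNA at Mus81, which runs towards Cfl1, had 3230, 2723 and 3535 reads in siNT and 2609.5 and 3403 in siZC3H4, with overlapping groups (log2 -0.08). Under TMM, the median of ratios and equal totals, which lower the changes of all uaRNAs, the Mus81 uaRNA passed as lower (-0.94, -0.97 and -0.65). The Cfl1 uaRNA turned to log2 -0.038 and -0.063 under TMM and the median of ratios and did not pass at 0.26 under equal totals. That of Pfn1 did not pass under TMM or the median of ratios (0.28 and 0.26).

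**Figure D2:**
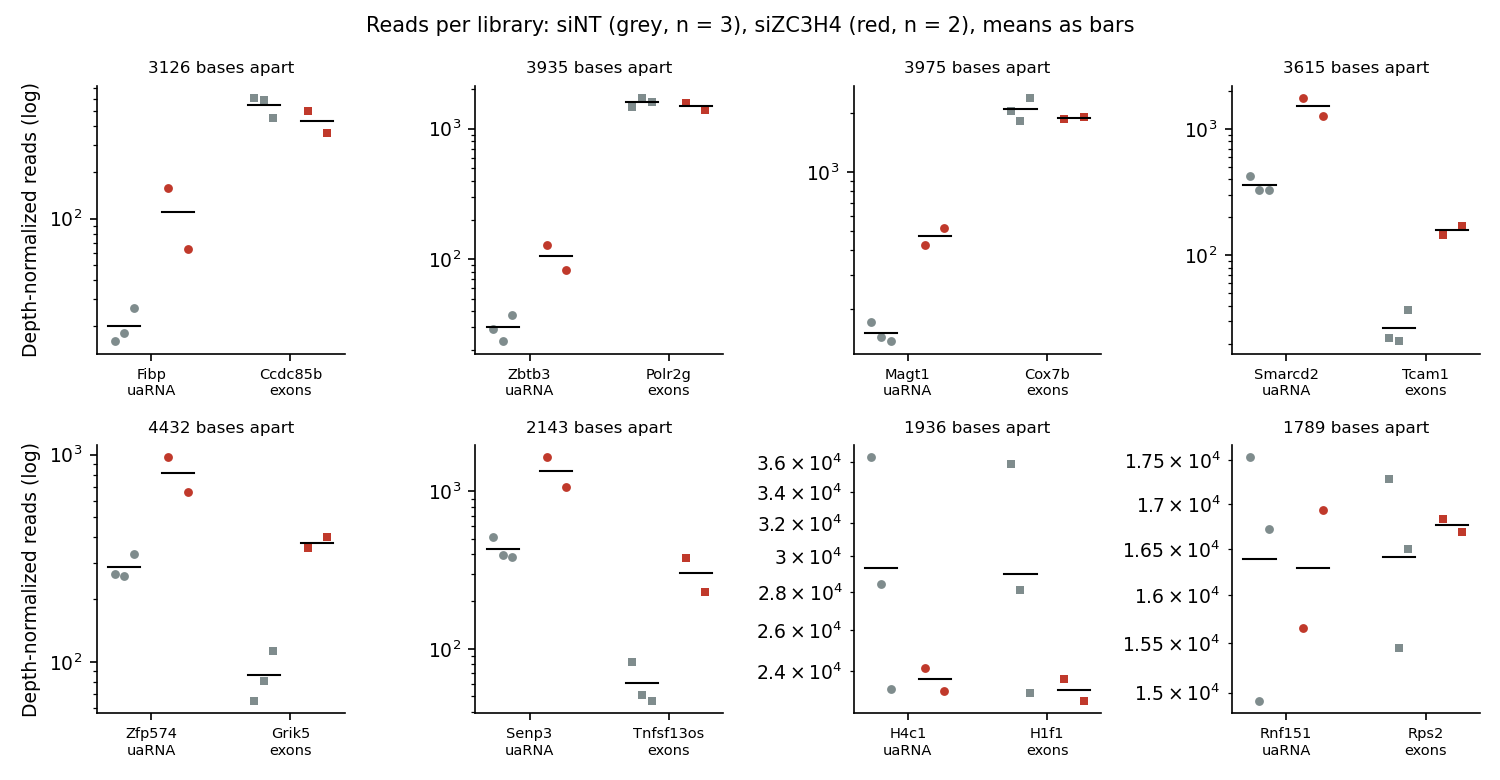
Depth-normalized reads (log axis, own scale in each panel) of the uaRNA (circles) and the partner's exons (squares) for 8 pairs, with siNT libraries in grey (n = 3), libraries labelled siZC3H4 in red (n = 2) and group means as bars. At Fibp, Zbtb3 and Magt1 only the uaRNA is higher in siZC3H4, at Smarcd2, Zfp574 and Senp3 both are, and at H4c1 and Rnf151 the values of uaRNA and partner nearly coincide.

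To ask whether a uaRNA and its partner changed unequally within the same libraries, the log2 ratio of uaRNA to neighbour exon reads was fitted over all 4916 uaRNAs with a tested opposite-strand neighbour at any distance. The ratio rose for 47 of 232 members (20.3%), against 42.1% of all, fell for 1, Gpi1, against 1.83%, and had a median log2 change of 0.23 beside 0.81 over all. Within 2 kb it rose at 1 of 77 pairs, Smim7 and the intracellular channel gene Tmem38a, 988 bases apart, where the uaRNA had 379, 363 and 461 reads in siNT and 622 and 646 in siZC3H4 and Tmem38a 213, 210.4 and 241 reads in siNT and 175 and 211 in siZC3H4 (ratio log2 0.87 ± 0.28 SE, limma adjusted p = 0.0314). From 2 to 5 kb it rose at 46 of 155 pairs. Reads counted both in a uaRNA region and in the partner's exons would hold this ratio steady, and such counting was not tested. The few calls within 2 kb cannot by themselves show that uaRNA and partner changed alike. In the deposited values each library has 1 depth factor for both tables, which nearly cancels in the ratio. Scaling each table on itself gives a library 2 different factors, so the ratios move by construction. Under TMM the median over all ratios was then -0.02. There 2 member ratios rose and 33 fell, against 4.9% and 7.34% of all ratios. Under the median of ratios 2 rose and 36 fell, against 4.86% and 7.75%, and under equal totals 9 and 13, against 10.4% and 4.45%. With siZC3H4 replicate 2 left out 6 rose, against 5.59%.

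The 5 ratios that rose most were at Fibp (log2 2.64 ± 0.41 SE, limma adjusted p = 0.00276), Agap3, Zbtb3, Magt1 and Setd4. Ccdc85b, the partner of Fibp, had 604, 588 and 451 reads in siNT and 500.3 and 357 in siZC3H4, with overlapping groups. The Agap3 uaRNA had 10, 11.3 and 5.97 reads in siNT and 40.2 and 24.9 in siZC3H4 while Tmub1 had 131, 123 and 126 reads in siNT and 83.8 and 88.9 in siZC3H4, so uaRNA and partner lay on opposite sides of siNT (ratio log2 2.28 ± 0.36 SE, limma adjusted p = 0.00292). At Zbtb3 the uaRNA had 29, 23.5 and 37.5 reads in siNT and 128 and 83.2 in siZC3H4 and Polr2g, the RPB7 subunit gene of RNA polymerase II, had 1466, 1716 and 1597 reads in siNT and 1577 and 1391 in siZC3H4 (ratio log2 1.88 ± 0.36 SE, limma adjusted p = 0.00462). At Magt1, an oligosaccharyltransferase subunit gene on the X chromosome, the uaRNA had 172, 144 and 137 reads in siNT and 423 and 518 in siZC3H4 and Cox7b, a cytochrome c oxidase subunit gene, had 2057, 1819 and 2383 reads in siNT and 1873 and 1904 in siZC3H4 (ratio log2 1.77 ± 0.31 SE, limma adjusted p = 0.00365). At Setd4, a SET-domain gene next to the carbonyl reductase gene Cbr1, the ratio changed by log2 1.68 ± 0.28 SE, limma adjusted p = 0.00338. At Gpi1 it fell by 1.50 on the log2 scale (SE 0.39, limma adjusted p = 0.0135).

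Partner distance also separated how alike the 2 changes were. The absolute difference between the log2 changes of uaRNA and partner had a median of 0.12 within 2 kb, where it was 0.25 or less at 60 of 77 pairs. It was 0.26 at 2 to 3 kb (21 of 42 pairs within 0.25), 0.59 at 3 to 4 kb (14 of 62) and 0.84 at 4 to 5 kb (4 of 51). A like division by distance appeared among the siNT libraries alone, where no treatment differs. Across the 77 pairs within 2 kb, the log2 difference of the uaRNA between any 2 siNT libraries correlated with that of the partner at Pearson r = 0.67, 0.69 and 0.71 (Spearman 0.63, 0.69 and 0.71). At 2 to 3 kb (n = 42) r was 0.37, 0.44 and 0.47, at 3 to 4 kb (n = 62) 0.06, -0.06 and 0.24, and at 4 to 5 kb (n = 51) 0.18, -0.24 and 0.07. These are correlations across pairs within the same 3 libraries and are given without a test. Gene pairs with a tested uaRNA at both genes enter them from each side, 18 of them within 2 kb, so the pairs are not all separate promoters. Reads counted in both a uaRNA region and the partner's exons would make the 2 changes alike, and such counting was not tested. Read level fell with distance too, with median uaRNA means of 507, 224, 120 and 69.3 reads from the closest to the farthest of these 4 classes. Fewer reads add counting noise to both measures. They were not compared at like read levels, so the part of read level was not tested.

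**Figure D3:**
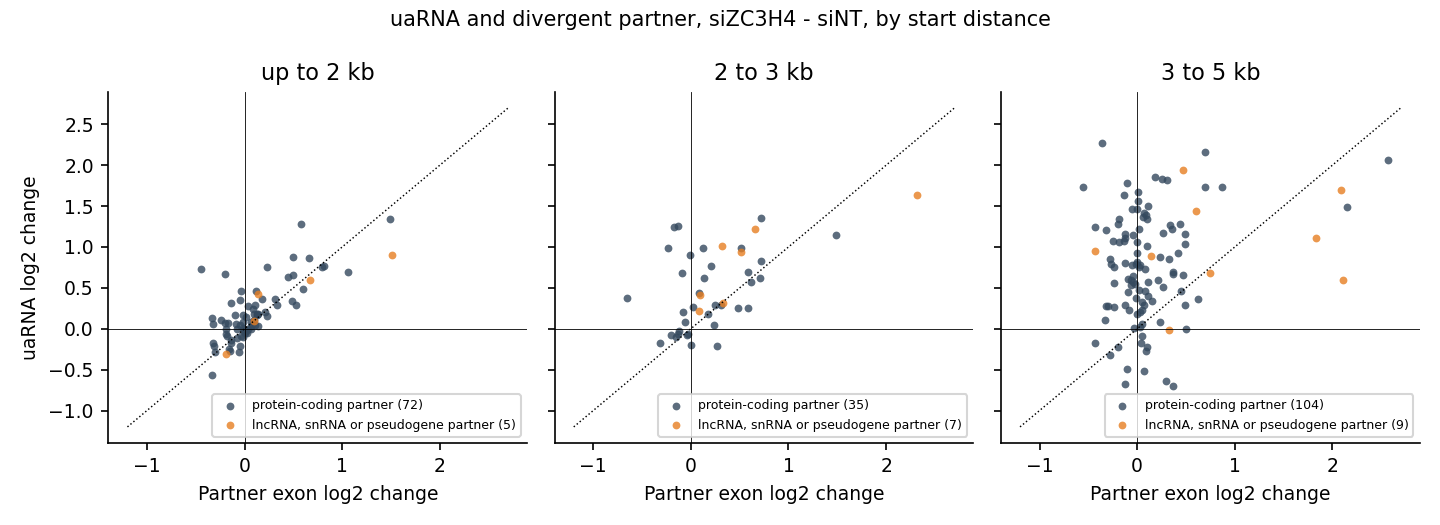
Log2 change (siZC3H4 minus siNT) of the uaRNA against that of the partner's exons, for 77 pairs up to 2 kb apart, 42 pairs 2 to 3 kb apart and 113 pairs 3 to 5 kb apart, with protein-coding partners in dark blue and other partners in orange. The dotted line marks equal change. Points up to 2 kb lie along it, with a median absolute difference of 0.12, and at 3 to 5 kb many uaRNAs lie above partners that are near 0.

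The levels of uaRNA and partner were related up to 3 kb. Across the 77 pairs within 2 kb, log2 mean siNT reads of uaRNA and partner correlated at Pearson r = 0.66 (Spearman 0.55), at 2 to 3 kb (n = 42) at 0.68 (0.62), at 3 to 4 kb (n = 62) at 0.09 (0.13) and at 4 to 5 kb (n = 51) at 0.21 (0.20), again as a description. Median uaRNA reads per partner exon read in siNT were 0.558 within 2 kb and 0.145 at 2 to 5 kb. By finer class they were 0.617 at 2 to 3 kb, 0.081 at 3 to 4 kb and 0.110 at 4 to 5 kb. Region lengths are not in the uaRNA table, so these are ratios of reads and not of reads per length. Whether a read could be counted both in a uaRNA region and in the partner's exons was not tested, since region ends are not given in the sources used here. Such reads would by themselves relate the 2 levels. At Bahcc1 and 2900052L18Rik, 1327 bases apart, the uaRNA held 1.02 to 1.03 reads per partner exon read in every library. At Tlcd1 and Nek8, 1408 bases apart, it held 0.70 to 1.45.

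**Figure D4:**
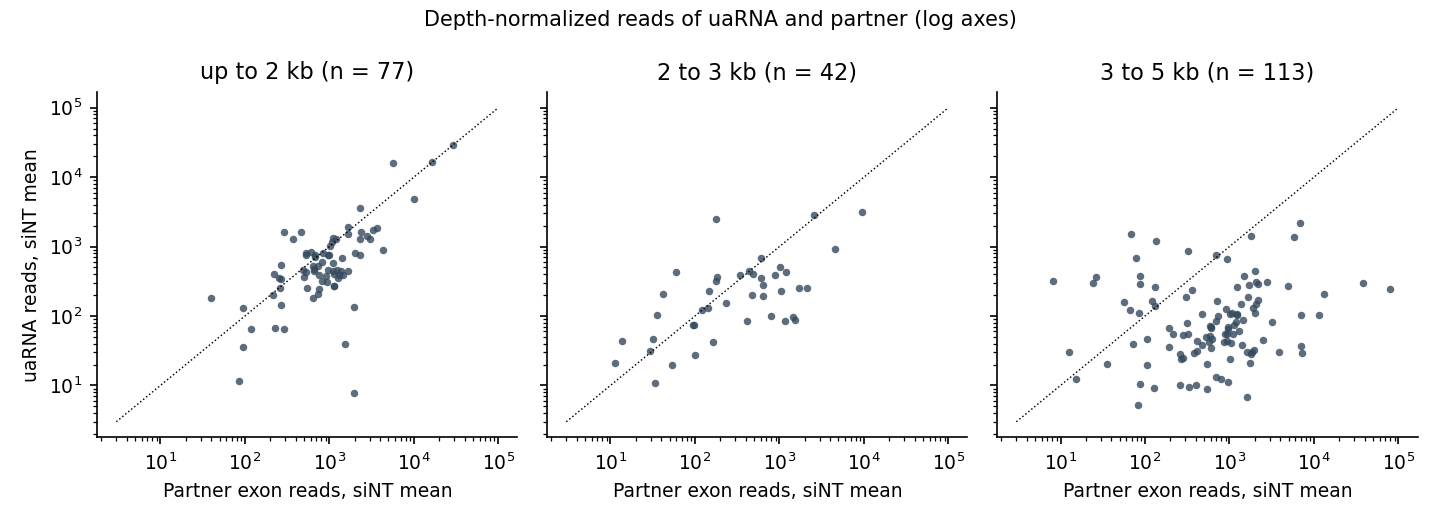
Mean depth-normalized reads of the uaRNA against those of the partner's exons in the 3 siNT libraries, both on log axes, for pairs up to 2 kb (n = 77), 2 to 3 kb (n = 42) and 3 to 5 kb (n = 113) apart. The dotted line marks equal reads. At the first 2 distances levels rise together (r = 0.66 and 0.68), and at 3 to 5 kb most uaRNAs lie below their partner with no such order.

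The members with the most uaRNA reads show the coincidence at single pairs. The uaRNA region of the histone gene H4c1, 1936 bases from the linker histone gene H1f1, had 36351, 28423 and 23217 reads in siNT and 24174 and 23121 in siZC3H4. H1f1 exons had 35870, 28121 and 22998 reads in siNT and 23656 and 22679.7 in siZC3H4, so the uaRNA held 1.01 to 1.02 reads per H1f1 exon read in each of the 5 libraries. The region of Rnf151, a RING finger gene 1789 bases from the ribosomal protein gene Rps2, had 17535, 14920 and 16718 reads in siNT and 15655 and 16937 in siZC3H4, and Rps2 had 17286, 15449 and 16497 reads in siNT and 16831 and 16693 in siZC3H4, with 0.93 to 1.01 uaRNA reads per exon read. Neither region passed the test (log2 -0.29 and -0.01), and the groups overlapped for both. Scaling the table on itself lowers the log2 changes of all uaRNAs, and both regions then passed as lower. H4c1 was at -1.15, -1.18 and -0.86 under TMM, the median of ratios and equal totals, and Rnf151 at -0.87, -0.90 and -0.58. Core histone genes such as H4c1 and H3c1 have near-identical copies, so their reads are uncertain where the authors' counting could split them. Whether such splitting reached the reads of H1f1 was not tested.

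The H1f1 uaRNA, 1280 bases from H3c1, had 16955, 14757 and 15822 reads in siNT and 12331 and 15816 in siZC3H4 against 6179, 5379 and 5366 reads in siNT and 4560.3 and 5718 in siZC3H4 in H3c1 exons. That of Sgsm2 had 5101, 4780 and 4478 reads in siNT and 4905 and 4505 in siZC3H4, and Tsr1, a ribosome maturation gene 991 bases away, had 10124, 9567 and 10052 reads in siNT and 10039.6 and 9950.3 in siZC3H4. The Slc49a4 region had 3479, 3821 and 3399 reads in siNT and 4104 and 3336 in siZC3H4, and Hspbap1, 1021 bases away, had 2198, 2787 and 1863 reads in siNT and 2031 and 1587 in siZC3H4. None of these uaRNAs or partners passed the test under the deposited factors. Their log2 changes were -0.18, -0.02 and 0.05 for the uaRNAs. With the table scaled on itself, which lowers all uaRNAs, all 3 passed as lower. Under TMM, the median of ratios and equal totals H1f1 was at -1.05, -1.07 and -0.75. Sgsm2 was at -0.89, -0.92 and -0.59 and Slc49a4 at -0.81, -0.84 and -0.52. Another gene of the RefSeq table lay wholly between the 2 starts at 24 members, among them H3c1 between H4c1 and H1f1 and Snhg9 between Rnf151 and Rps2.

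At 52 pairs both genes hosted a tested uaRNA, so each strand leaving the shared interval could be compared with the other. Both uaRNAs rose at 9 pairs, 1 of the pair rose at 23, neither passed at 19 and at 1 the Gemin2 uaRNA fell. All 9 pairs with rises on both sides were 3615 to 4910 bases apart: Chaf1a and Sh3gl1, Itpkc and Coq8b, Coro7 and Dnaja3, Pcgf2 and Psmb3, Smarcd2 and Tcam1, Bfar and Parn, Gins1 and Abhd12, Zfp260 and Zfp566, and Taok3 and Suds3. Within 2 kb both rose at 0 of 18 pairs, and 1 rose at 6. Of single members 15.6% rose within 2 kb and 54.4% at 2 to 5 kb, beside 62.1% of all uaRNAs, so few close pairs could have 2 rises. Whether the 2 sides rose together more or less often than these shares give was not tested. The absolute difference between the 2 uaRNA changes of a pair had a median of 0.48 and reached 1 log2 unit or more at 7 pairs, all of them 2 to 5 kb apart.

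The most uneven pair was Fibp and Ccdc85b, where the Ccdc85b uaRNA had 65, 62.6 and 74.2 reads in siNT and 60.6 and 54.5 in siZC3H4 (log2 -0.22) beside the 2.28 of Fibp. Lower values in both libraries labelled siZC3H4 stood opposite higher ones on the other strand. At Magt1 and Cox7b the Cox7b uaRNA had 71, 88.7 and 93.9 reads in siNT and 59.4 and 57.4 in siZC3H4 (log2 -0.52) beside 1.63 for Magt1. The uaRNA of Lsm12 had 36, 17.4 and 52.9 reads in siNT and 15.8 and 25.8 in siZC3H4, with overlapping groups (log2 -0.64), beside 40, 40.9 and 42.7 reads in siNT and 135 and 98.5 in siZC3H4 in that of G6pc3, a glucose-6-phosphatase gene (log2 1.47 ± 0.30 SE, limma adjusted p = 4.60e-05). The 3 low uaRNAs did not pass the test, and a difference between the 2 sides of a pair was not itself tested.

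**Figure D5:**
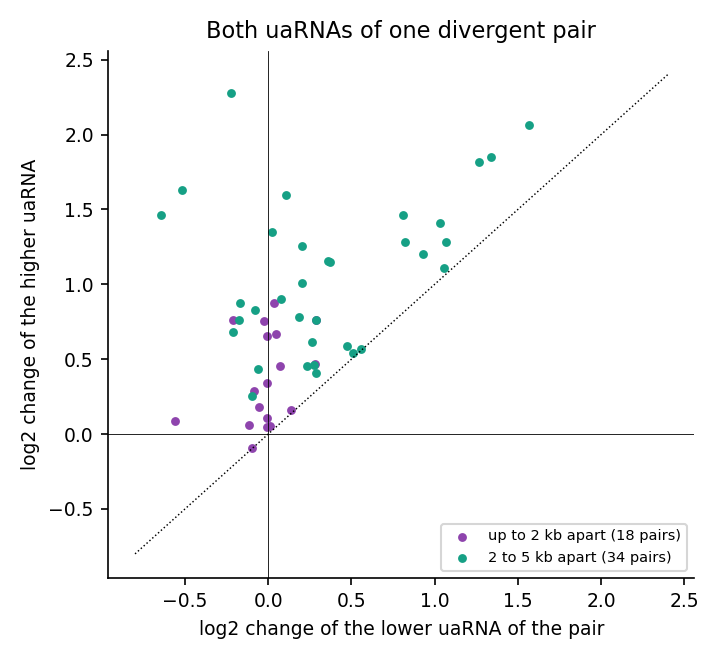
For the 52 divergent pairs with a tested uaRNA at both genes, the log2 change (siZC3H4 minus siNT) of the higher uaRNA against that of the lower one, with pairs up to 2 kb apart in purple (18) and 2 to 5 kb apart in green (34). The dotted line marks equal change. Points at the upper left are uneven pairs such as Fibp and Ccdc85b (2.28 and -0.22), and the 9 pairs in which both rose are all green.

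The kind of partner and the host gene were examined too. With an lncRNA partner 14 of 20 member uaRNAs rose (median log2 0.93), and with a protein-coding partner 84 of 214 (0.37). Of all uaRNAs tested 62.1% rose, with a median of 0.88, so those with an lncRNA partner were near the whole table. Of the 20 lncRNA partners 17 were 2 to 5 kb away, where 12 of 17 uaRNAs rose beside 74 of 142 with a protein-coding partner. In siNT the median was 2.86 uaRNA reads per partner exon read for lncRNA partners and 0.285 for protein-coding ones. Among the 2 snRNA partners, Rnu11, the U11 RNA of the minor spliceosome, had log2 -0.44 ± 0.16 SE beside 0.95 for the uaRNA of Taf12, a TFIID subunit gene. Few host genes passed the test, with 5 of 236 rising (2.12%, against 2.22% of all genes), 0 falling in limma and a median of 0.01. At an unadjusted p below 0.05, 29 hosts were higher and 6 lower, against the 11.0% and 4.39% of all genes. By edgeR 6 rose and by DESeq2 14, against 2.76% and 4.3%, and 0 fell by either. The 5 hosts were Iars2, Mdc1, Mus81, Pigl and Tcam1.

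DNA repair and cell cycle genes, often described at divergent promoters, were followed through a list of 80. Of their own uaRNAs 29 were tested, wherever the next divergent start lay: 17 rose, against 62.1% of all uaRNAs, 2 fell, against 1.13%, and the median log2 change was 0.78, beside 0.88 over all. Exon reads of 76 were tested and 3 rose, against 2.22% of all genes. Only the uaRNAs of Lig4, the DNA ligase of end joining, and Trp53 were members, and neither passed. The Lig4 uaRNA, 1488 bases from Abhd13, had 831, 714 and 747 reads in siNT and 604 and 712 in siZC3H4, slightly lower in both siZC3H4 libraries (log2 -0.22). One list gene was a partner, Fancm, a helicase of the Fanconi anaemia pathway 1681 bases from Fkbp3. Fancm had 2841, 3318 and 2793 reads in siNT and 2804 and 2904 in siZC3H4 and the Fkbp3 uaRNA had 1418, 1404 and 1082 reads in siNT and 1032 and 1098 in siZC3H4 (log2 -0.28), overlapping in both.

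The values at the edges of the rule are given as a description. Just above the mean of 10 reads were Rtn2 (10.2 reads, log2 -0.20), H4c9 (10.2, 0.73), Lgr4 (10.4, 1.94) and Msh5 (11.1, 0.67). Just below it Zswim8 (9.11 reads), Med25 (8.70), Mier1 (8.24) and Serf1 (8.22) were not tested. Just inside the distance limit were Zfp260 at 4757 bases (log2 1.46) and Gins1 and Abhd12, which face each other at 4910 bases (1.21 and 0.93). Just outside it were Snrnp35 at 5010 (1.08), Miga2 at 5025 (0.05), Rtca at 5050 (-0.40) and Ppil1 at 5059 (0.76).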

How the data were processed

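TT-seq reads of 3 siNT and 2 siZC3H4 libraries were analysed. Per the submitters' processing notes the authors used cutadapt 1.14, STAR, featureCounts and DESeq2 with the builds mm10 and dm6, whose order and settings are not given in the sources used here. Both deposited tables hold the authors' depth-normalized signal per uaRNA region and, over exons, per gene. With 1 factor per library (1, 1.15 and 1.172 for siNT, 1.767 and 1.046 for siZC3H4) 100% of deposited signal values came out as whole reads within 0.01 reads. Starts were taken from the gene table (Start on the + strand, Stop on the - strand), leaving out 6 genes with Start above Stop. The partner was the nearest opposite-strand start upstream.

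From these values log2(signal + 1) was fitted with limma 3.58.1 (trend, R 4.3.3) over all features with a mean of 10 or more, with Benjamini-Hochberg adjustment over the whole table. Fold changes on this scale understate those of low features, and p-values of single uaRNAs lean on the spread limma shares across the table. The fits covered 5124 uaRNAs, 12482 genes and, with the same settings, 4916 ratios. Alternatives were other pseudocounts, filters, scalings, distance windows and partner choices, a replicate block, edgeR 4.0.16 and DESeq2 1.42.0 on recovered reads, and each library left out in turn. Named genes are the 10 largest called rises and up to 8 largest called falls without overlap, the 6 members with the most reads, up to 10 with a called partner, textbook divergent pairs, up to 5 called ratios each way, and the 4 on either side of each limit of the rule. Gemin2, the reciprocal uaRNAs and the other named members were chosen after their values were seen. The members and gene lists were chosen with earlier results of these data known. Some genes that the rule for named genes picks are not reported here.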

Additional observations from a re-analysis of the deposited data

How the results depend on the processing

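Under other pseudocounts, edgeR on recovered reads, overlapping starts up to 500 bases and the partner with the most exon reads, all counts stayed within 1.5 times those given. Scaling each table on itself moved the members that rose and fell to 15 and 88 (TMM), 14 and 90 (median of ratios) and 34 and 48 (equal totals), their median to -0.40, -0.43 and -0.11, and the ratios to 2 and 33, 2 and 36, and 9 and 13. The partner counts kept to 13 and 0, with a median of 0.0020 under the median of ratios. By construction TMM and the median of ratios centre the uaRNAs, and scaling the 2 tables apart moves the ratios too. Without the filter 1 partner rose and 1 member fell, with DESeq2 23 partners rose and 1 member fell, and at a mean of 50 or more the member median was 0.33. In the 1 kb window 4 members rose and 0 fell (median 0.34), 2 partners rose (median 0.12), and 1 ratio rose and 0 fell. In the 2 kb window 12 rose and 1 fell (median 0.11), 4 partners rose, and 1 ratio rose and 0 fell. These windows hold fewer uaRNAs. With protein-coding partners only, the median was 0.37, 8 partners rose and 0 ratios fell.

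With the replicate block 97 members rose and 2 fell, 43 partners rose and 12 fell, and 60 ratios rose and 3 fell. Of all 5124 uaRNAs 62.1% then rose and 43 fell, and of all 4916 ratios 53.6% rose and 135 fell. The block leaves siNT replicate 1 without weight, and no label links same-numbered libraries. They deviated together at r = 0.38 (replicate 2) and 0.43 (replicate 3) across uaRNAs and at 0.53 and 0.62 across genes, where the block moved calls most (1530 of 12482 genes rose and 830 fell). With 2 such pairs the numbers were not used as pairs. With libraries left out in turn, 54 to 92 members rose and 0 to 3 fell (median 0.33 to 0.51), 0 to 23 partners rose and 0 to 2 fell (median 0.03 to 0.07), and 6 to 41 ratios rose and 0 to 3 fell. The low values came without siZC3H4 replicate 2, and for partners without siNT replicate 1 too.

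Signs turned for 4 uncalled uaRNAs near 0. With libraries left out in turn they ranged from -0.072 to 0.051 (Rnf151), -0.085 to 0.038 (Sgsm2), -0.095 to 0.20 (Slc49a4) and -0.27 to 0.11 (Mus81). With the block Rnf151 was at 0.044 and Sgsm2 at 0.023, and Slc49a4 was at -0.81, -0.84 and -0.52 under the 3 scalings. Under TMM and the median of ratios signs turned for Gpi1 (-0.20, -0.22), Ncor1 (-0.10, -0.13), Cfl1 (-0.038, -0.063) and Trp53 (-0.69, -0.71, and -0.39 under equal totals). The cause was not tested beyond the construction of the scalings. The ratio was not run in edgeR or DESeq2. The 5 libraries limit what could be called: changes of members with few reads, such as Lgr4 and Gpi1, have standard errors of 0.58 and 0.47.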

Other observations

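Groups by symbol, picked after their values were seen, are given as values. Histone genes hosted 7 member uaRNAs, from 10.2 to 27057 mean reads. Of these, that of H2aj rose from 116, 85.2 and 114 reads in siNT to 252 and 190.2 in siZC3H4 (log2 1.07 ± 0.26 SE, limma adjusted p = 4.54e-04), and that of H3c11 rose by log2 0.80. The 5 others, H1f1, H2ac8, H4c1, H4c12 and H4c9, did not pass, and the median of the 7 was -0.07. Of all uaRNAs tested 62.1% rose, with a median of 0.88. The counting of near-identical core histone copies makes some of these reads uncertain.

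Ribosomal protein genes hosted 6 members, Rpl19, Rpl28, Rpl35, Rpl36, Rplp2 and Rps2, of which 4 rose, again beside 62.1% of all uaRNAs, with a median log2 change of 1.05. Where a ribosomal protein gene was the partner, at the uaRNAs of Arpc5l, Micos13, Polr3a, Rnf151 and Tmem238, 1 of 5 rose and the median was 0.02. At Rpl28 the uaRNA had 933, 1078 and 619 reads in siNT and 3237 and 1460 in siZC3H4 (log2 1.35), without overlap, while Tmem238 exons had 348, 369 and 241 reads in siNT and 333 and 228 in siZC3H4.

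Of all members 41.8% rose. With the members in 4 classes of equal size by partner exon reads, 35 of 60 member uaRNAs rose beside the lowest partners (2.8 to 274 mean reads, median log2 0.75), 24 of 59 in the next class (0.47), 18 of 59 in the third (0.23) and 22 of 59 beside the highest (1440 to 73988 mean reads, 0.28). Median start distances of the classes were 3075, 2978, 2158 and 3119 bases. Whether partner level or distance goes with the share was not tested.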
